A study of Mus musculus with 6 samples.

Results

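Neutrophils fill their granules in waves. Promyelocytes make the primary granule proteases and myeloperoxidase. Myelocytes then switch on the secondary granule genes, a step known to need the transcription factor C/EBP epsilon. Some genes, among them S100a8 and S100a9, stay on in mature cells. The 9 genes described here belong to the secondary and late waves: Ltf, Lcn2, Ngp and Camp (secondary granule proteins), Stfa2 (a stefin, an inhibitor of cysteine proteases), S100a8 and S100a9 (the subunits of calprotectin), Fcnb (ficolin B) and Mcemp1 (a membrane protein named for mast cells). They were chosen by name as late granulocyte genes, and all 9 were found among the 17909 genes of the deposited table.

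Bulk RNA was sequenced from 6 libraries of cells sorted from C57BL/6xFVB mouse embryos, all by fate mapping with Csf1r-iCre, in which Cre is made by cells that use the Csf1r promoter. Fetal liver at E11.5 gave erythro-myeloid progenitors (EMPs, described as LiB7_neg), mast cell progenitors (MCPs, described as LiB7_pos) and cells labelled as macrophages (MAC). The limb gave MCPs on days E11.5 and E14.5. For the E16.5 skin library the title says MCPs, whereas its description says mast cells. Each group held 1 library, so nothing below has a replicate, a standard error or a p-value, and whether embryos were pooled is not given in the sources used here.

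Library depth, estimated from the steps between low FPKM values (fragments scaled to transcript length and library depth), was between 8550000 and 11950000 fragments. At that depth 3 fragments correspond to an FPKM of 0.0915 to 0.745, depending on the gene and the library, which is the level a gene listed at 0 could still hold. In skin 5675 genes reached an FPKM of 1, and in each other library 8270 to 8754 did. The macrophage-labelled library held Csf1r at 34.1, Adgre1 (the F4/80 antigen) at 18.4 and Ctss at 30.8, and 14 of 21 macrophage markers reached an FPKM of 1 there. Spic and Cd5l, markers of resident macrophages, were listed at 0, and Cd163 and Timd4 were at 0.02 and 0.65. The summed FPKM of 11 eosinophil markers in the same library was 10060, against 134 for the 21 macrophage markers. Prg2 alone held 5617 of the 10060, while Ccr3 read 0.91, so the sum follows a few abundant genes and does not measure cell content. The median FPKM was 103.2 for the eosinophil and 1.76 for the macrophage markers. Because of these values the library is called macrophage-labelled throughout. EMPs is likewise the name from the label. In that library 18 markers of neutrophil precursors and maturing neutrophils summed to 10520, against 374 for 11 progenitor markers. The myeloperoxidase gene Mpo alone held 8174 of the 10520.

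The promoters are shown because the 9 genes were high and low in much the same libraries and C/EBP factors are the textbook regulators of the secondary wave. The lines give, 5′ to 3′ on the gene's own strand, the 250 bases before the RefSeq start site on GRCm38.p6, with capitals marking every match to the C/EBP core TTNNGNAA on either strand. Ltf, Ngp, Lcn2 and Fcnb have a match, and Camp does not.
Ltf, chr9:111019042-111019291, plus strand: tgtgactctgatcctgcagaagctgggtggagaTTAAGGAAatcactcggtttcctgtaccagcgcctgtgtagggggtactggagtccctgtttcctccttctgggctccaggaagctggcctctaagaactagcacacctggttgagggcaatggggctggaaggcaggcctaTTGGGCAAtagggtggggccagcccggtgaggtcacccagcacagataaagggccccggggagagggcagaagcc
Ngp, chr9:110419558-110419807, plus strand: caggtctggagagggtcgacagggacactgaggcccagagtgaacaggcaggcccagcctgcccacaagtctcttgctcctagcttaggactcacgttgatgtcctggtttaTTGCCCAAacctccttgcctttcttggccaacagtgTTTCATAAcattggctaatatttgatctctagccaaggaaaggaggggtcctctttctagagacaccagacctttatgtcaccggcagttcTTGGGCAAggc
Lcn2, chr2:32387740-32387989, minus strand: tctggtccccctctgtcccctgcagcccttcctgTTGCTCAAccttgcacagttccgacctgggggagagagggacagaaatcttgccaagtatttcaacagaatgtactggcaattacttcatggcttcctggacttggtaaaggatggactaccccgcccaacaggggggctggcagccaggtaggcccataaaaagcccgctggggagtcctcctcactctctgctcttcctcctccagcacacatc
Fcnb, chr2:28084879-28085128, minus strand: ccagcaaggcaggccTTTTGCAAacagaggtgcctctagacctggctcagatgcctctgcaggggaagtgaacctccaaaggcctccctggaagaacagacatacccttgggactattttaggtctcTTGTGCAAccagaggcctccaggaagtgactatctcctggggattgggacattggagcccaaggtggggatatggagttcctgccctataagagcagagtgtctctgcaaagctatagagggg
Camp, chr9:109849457-109849706, minus strand: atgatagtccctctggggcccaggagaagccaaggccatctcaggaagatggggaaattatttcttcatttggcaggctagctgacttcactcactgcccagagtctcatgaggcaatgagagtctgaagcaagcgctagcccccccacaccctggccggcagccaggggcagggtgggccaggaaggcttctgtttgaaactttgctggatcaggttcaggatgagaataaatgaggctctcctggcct

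The C/EBP core was present in 7 of the 9 promoters, all but those of Camp and Mcemp1, and in 31.5% of the 16951 promoters of genes in the table. In Ngp it occurred 3 times, from 138 to 131, 102 to 95 and 11 to 4 bases before the start site. The PU.1 motif AGGAAG was present in 6 of 9, among them Camp with 2 matches, and in 28.7% of all. The GATA motif AGATAA was present in 2 of 9 (Ltf and S100a9) against 7.73%, and the TATA box TATAAA in 1 (S100a8) against 9.27%. The GATA matches lay 32 to 27 (Ltf) and 30 to 25 (S100a9) bases before the start site. The TATA box of S100a8 lay in the same place, 30 to 25 bases before it. Only the exact strings were sought, so variants of the TATA box were not counted, and what the 2 GATA matches do was not tested. No match overlapped another. A match describes the letters of these windows, not binding. The gene positions given below are from the GENCODE annotation, whose starts can differ from those of RefSeq. By GENCODE the Lcn2 window lies wholly inside the gene, and the windows of Ltf, Ngp, Camp and Fcnb overlap their genes in part.

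All 9 genes had their highest level in the macrophage-labelled library, whether FPKM was taken as deposited, rescaled to equal sums or after median-of-ratios scaling. Their levels there ran from 73.2 (Ltf) to 1384 (S100a9), with a median of 174.6, against 20.3 in EMPs, 8.72 in liver MCPs and 1.6 in limb MCPs at E11.5. Together the 9 genes took 2.45% of the FPKM sum of the macrophage-labelled library, 0.383% in EMPs, 0.0999% in liver MCPs and 0.0358% in limb MCPs at E11.5. In limb MCPs at E14.5, 6 of the 9 were listed at 0, and in skin 7 of 9. In bulk RNA, fewer cells of a type and less RNA per cell cannot be told apart.

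**Figure D1:**
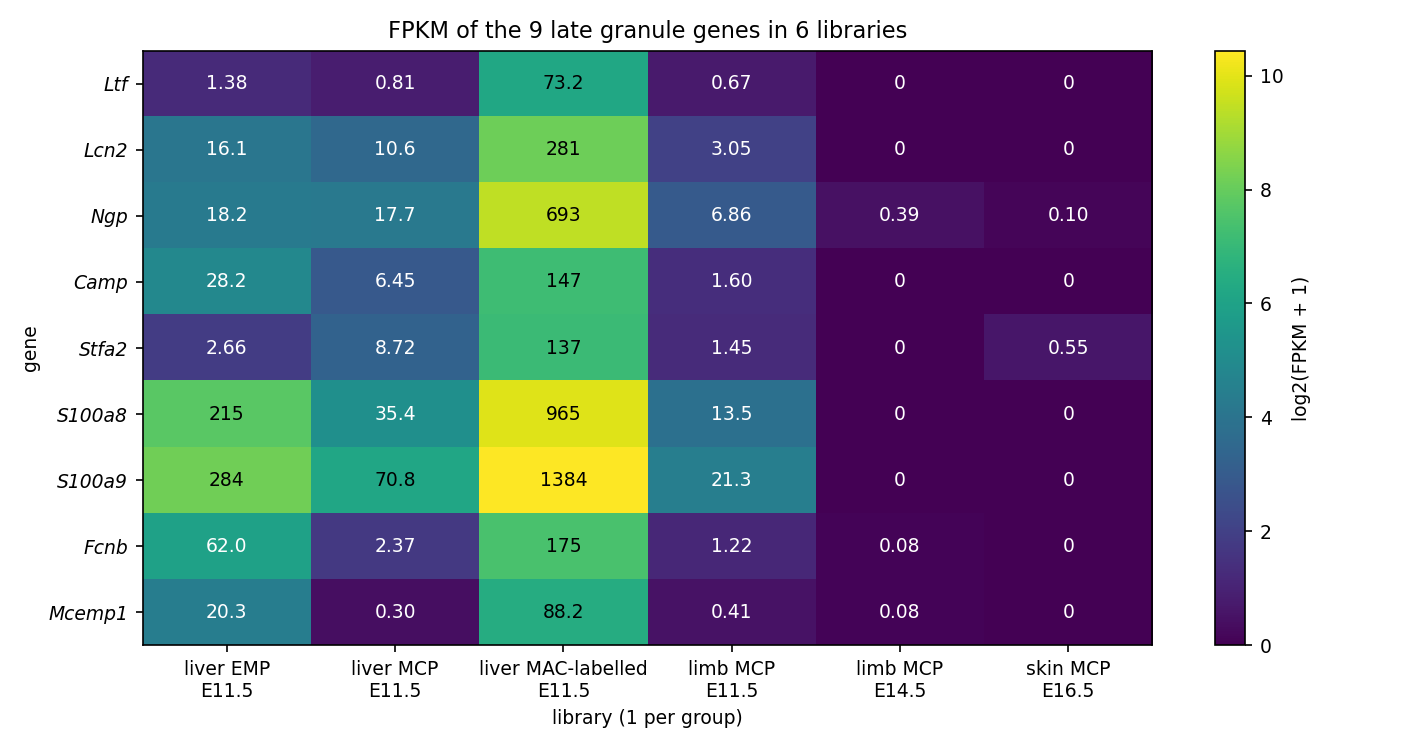
FPKM of the 9 genes (rows) in the 6 libraries (columns), with each value printed and the colour showing log2(FPKM + 1). The macrophage-labelled column is the brightest in every row, from 73.2 to 1384, and the E14.5 limb and E16.5 skin columns are at or near 0.

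The macrophage-labelled library was set against EMPs, also of fetal liver at E11.5, to see how far late granule genes differed between the pair. Calls needed a difference of 2 or more in log2(FPKM + 1), a 4-fold step, and an FPKM of 10 or more in 1 of the pair. By this rule 8 of the 9 genes were higher in the macrophage-labelled library and none was lower. Over the 3179 genes that passed the filter, 2.39% were called higher and 0.661% lower. The median difference of the 9 was 2.34, and the median over the 3179 genes was −0.29. Fcnb was the gene not called, at a difference of 1.48. At 2-fold all 9 were higher, as were 5.85% of genes.

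Ltf encodes lactoferrin, the iron-binding protein of secondary granules. The EMP library read 1.38, liver MCPs 0.81, the macrophage-labelled library 73.2 and early limb MCPs 0.67, and the E14.5 limb and skin libraries were listed at 0. Ltf was thus 53.0-fold higher in the macrophage-labelled library than in EMPs, a difference of 4.96 in log2(FPKM + 1). The other 5 libraries stayed at or below 1.38. The 95% counting intervals of EMPs (1.0 to 1.84), liver MCPs (0.520 to 1.17) and early limb MCPs (0.39 to 1.11) overlapped. All such intervals are exact Poisson intervals on estimated fragments and cover counting error only.

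Ngp, neutrophilic granule protein, is a cathelicidin-related gene of the secondary granule. Its level was 693 in the macrophage-labelled library, 18.2 for EMPs, 17.7 for liver MCPs, 6.86 for early limb MCPs, 0.39 for the limb at E14.5 and 0.10 for skin. The fold over EMPs was 38.2. EMPs and liver MCPs lay within each other's counting interval, and which of them was higher turned with the scaling, the difference of liver MCPs from EMPs being −0.03 as deposited and 0.10 at equal sums.

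Lcn2 encodes lipocalin 2, which binds bacterial siderophores. Its FPKM was 281 in the macrophage-labelled library, 16.1 for EMPs, 10.6 for liver MCPs and 3.05 for early limb MCPs, and it was listed at 0 in the later limb and in skin. The fold over EMPs was 17.4. The counting intervals of EMPs (13.8 to 18.7) and liver MCPs (8.72 to 12.7) did not overlap.

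Camp encodes the cathelicidin precursor, from which an antimicrobial peptide is cut. The macrophage-labelled library held 147, EMPs 28.2, liver MCPs 6.45 and early limb MCPs 1.60, with both later libraries at 0. The fold over EMPs, 5.22, was the smallest of the 4 secondary granule genes. On GRCm38 Camp lies on chromosome 9 at 109847379 to 109849617, Ngp at 110419747 to 110423012 and Ltf at 111019271 to 111042767, so 3 of the 4 share a chromosome, while Lcn2 lies on chromosome 2 at 32384633 to 32388252.

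Stfa2 belongs to the stefin A cluster, whose genes are near copies, so its single values are uncertain. EMPs held 2.66, liver MCPs 8.72, the macrophage-labelled library 137 and early limb MCPs 1.45. The E14.5 limb was listed at 0 and skin at 0.55, about 2 fragments. The fold over EMPs was 51.5 and the difference 5.24. Stfa2, Ngp and Ltf lay close together, and their order turned with the scale: Ltf was ahead by fold, and Ngp was ahead of Stfa2 under median-of-ratios scaling (5.46 against 5.43) and with a pseudocount of 5 (4.92 against 4.21). Stfa2 was also the only one of the 9 that was higher in liver MCPs than in EMPs as deposited, by 3.28-fold, with counting intervals of 6.47 to 11.6 and 1.49 to 4.40.

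S100a8 and S100a9 pair to form calprotectin, a calcium and zinc binding complex abundant in neutrophil cytosol. S100a8 had an FPKM of 215 in the EMP library, 35.4 with liver MCPs, 965 with the macrophage-labelled cells and 13.5 with early limb MCPs. S100a9 read 284, 70.8, 1384 and 21.3 in the same order. Both were listed at 0 in limb MCPs at E14.5 and in skin. They were 4.48-fold and 4.88-fold higher in the macrophage-labelled library than in EMPs, and they ranked 100 and 76 of all genes by FPKM in EMPs. The ratio of S100a9 to S100a8 was 1.32 for EMPs, 1.43 for the macrophage-labelled library, 1.57 for early limb MCPs and 2.0 for liver MCPs.

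Fcnb encodes ficolin B, a lectin that can start the complement cascade. EMPs held 62.0, liver MCPs 2.37, the macrophage-labelled library 175, early limb MCPs 1.22, the E14.5 limb 0.08 (about 1 fragment) and skin 0. Its 2.82-fold difference between the macrophage-labelled library and EMPs was the smallest of the 9. Mcemp1 read 20.3, 0.30, 88.2, 0.41, 0.08 and 0 in the same libraries, a fold of 4.35 over EMPs. Despite its name, mast cell expressed membrane protein, it stayed at or below an FPKM of 0.41 in all 4 mast lineage libraries, where Cpa3 and other mast cell markers summed to 383 in liver MCPs and 15820 in skin.

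By size of the difference the 9 genes fell into a group at 4.04 to 5.24 (Stfa2, Ngp, Ltf and Lcn2) and a group at 1.48 to 2.34 (Camp, S100a9, S100a8, Mcemp1 and Fcnb). This grouping was made after the values were seen. The make-up of the sum of the 9 genes differed accordingly. S100a8 and S100a9 made up 77.0% of it in EMPs and 59.6% in the macrophage-labelled library. Ltf, Lcn2, Ngp and Camp made up 9.85% in EMPs, 30.3% in the macrophage-labelled library, 23.2% in liver MCPs and 24.3% in early limb MCPs. Such shares are ratios within a library and do not move with scaling.

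**Figure D2:**
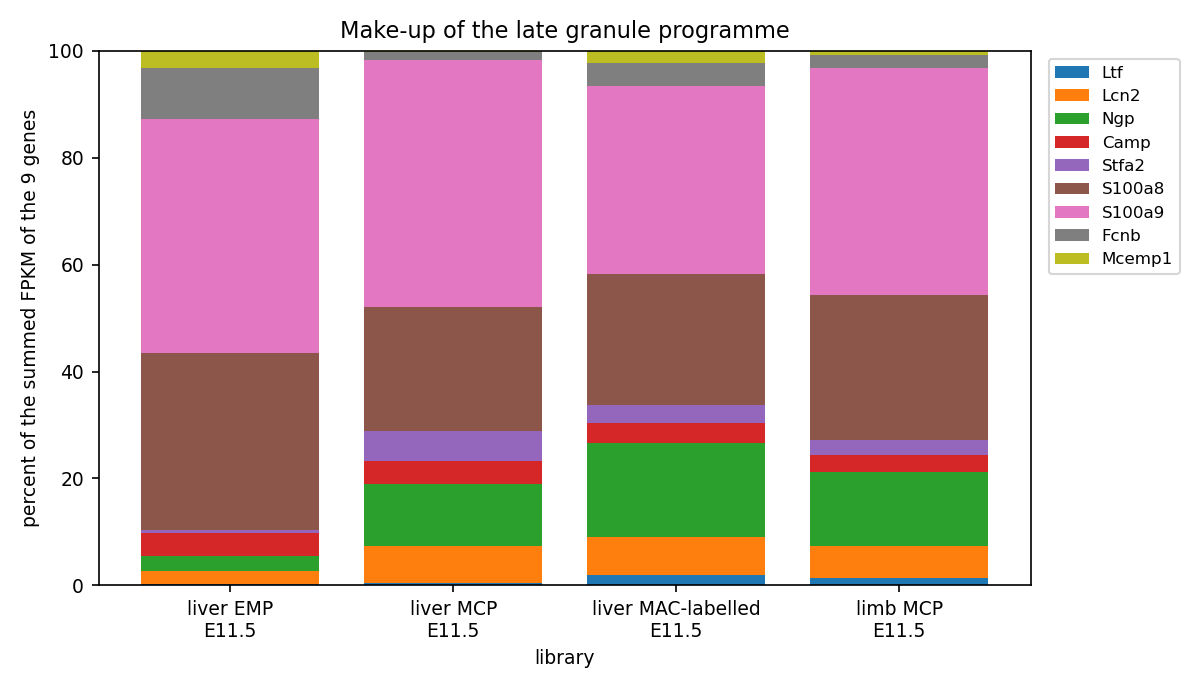
Share of each gene in the summed FPKM of the 9 genes (vertical, percent) in the 4 libraries taken at E11.5 (horizontal). Ngp takes 2.80% of the sum in EMPs and 17.6% in the macrophage-labelled library, and Fcnb 9.56% in EMPs and 1.55% in liver MCPs.

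The genes of the earlier wave were not higher along with them. The primary granule list held 19 genes of the table. It was broad, with the chaperone gene Calr in it, and it shared Serpinb1a with the list of late genes below. Of the 19, 16 passed the filter, 1 was called higher in the macrophage-labelled library and none lower. Over all genes past the filter 2.39% were higher and 0.661% lower. The gene called was Ctsc, cathepsin C, which activates granule proteases (66.0 against 10.7). The median difference over the 16 that passed was −0.64 as deposited and −0.34 under median-of-ratios scaling, where that of all genes passing the filter was −0.29 and 0.07. Over all 19 it was −0.38 and −0.09. Mpo, myeloperoxidase, read 3621 against 8174 in EMPs, Elane, neutrophil elastase, 732 against 1166, Prtn3, proteinase 3, 184 against 383, and Ctsg, cathepsin G, 26.0 against 86.1. Calr, the chaperone calreticulin, read 162 against 420, and Hpgd, below the filter, 4.25 against 0.19. The summed FPKM of Ltf, Lcn2, Ngp and Camp per 100 of these 4 primary genes was 0.651 for EMPs, 2.77 for early limb MCPs, 3.91 for liver MCPs and 26.2 for the macrophage-labelled library.

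Of the 36 other secondary, tertiary and late genes in the table, 24 passed the filter, 11 were called higher and none lower. The median difference over the 36 was 1.89. Over all genes past the filter 2.39% were called higher. The stefins Stfa1, Stfa2l1, Stfa3, BC100530 and Gm5483, whose single values are uncertain, were 5 of the 11. Equal sums and median-of-ratios scaling each gave 12 higher, where 69 of 2808 and 84 of 2749 of all genes were higher. TPM, which rescales every library to a fixed and larger sum so that 35 passed, gave 21, where 286 of 8120 were. The most different were Ifitm6 (29.1, and listed at 0 in EMPs), the stefins Stfa3 (212 against 6.53) and Stfa2l1 (558 against 20.1), and Lyz2, lysozyme (2633 against 227). Mmp8, neutrophil collagenase, read 12.3 against 0.43, and Olfm4, a granule glycoprotein of a neutrophil subset, 121 against 12.8. Hp (haptoglobin, 78.95 against 74.4) and Cstb (13.7 against 13.3) were close to equal. Ly6g, a surface marker of mature neutrophils, read 2.14 in the macrophage-labelled library and was listed at 0 in the other 5. Mmp9, gelatinase B of tertiary granules, read 2.65 against 0.13 and Retnlg 6.02 while listed at 0 in EMPs, all below the filter.

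**Figure D3:**
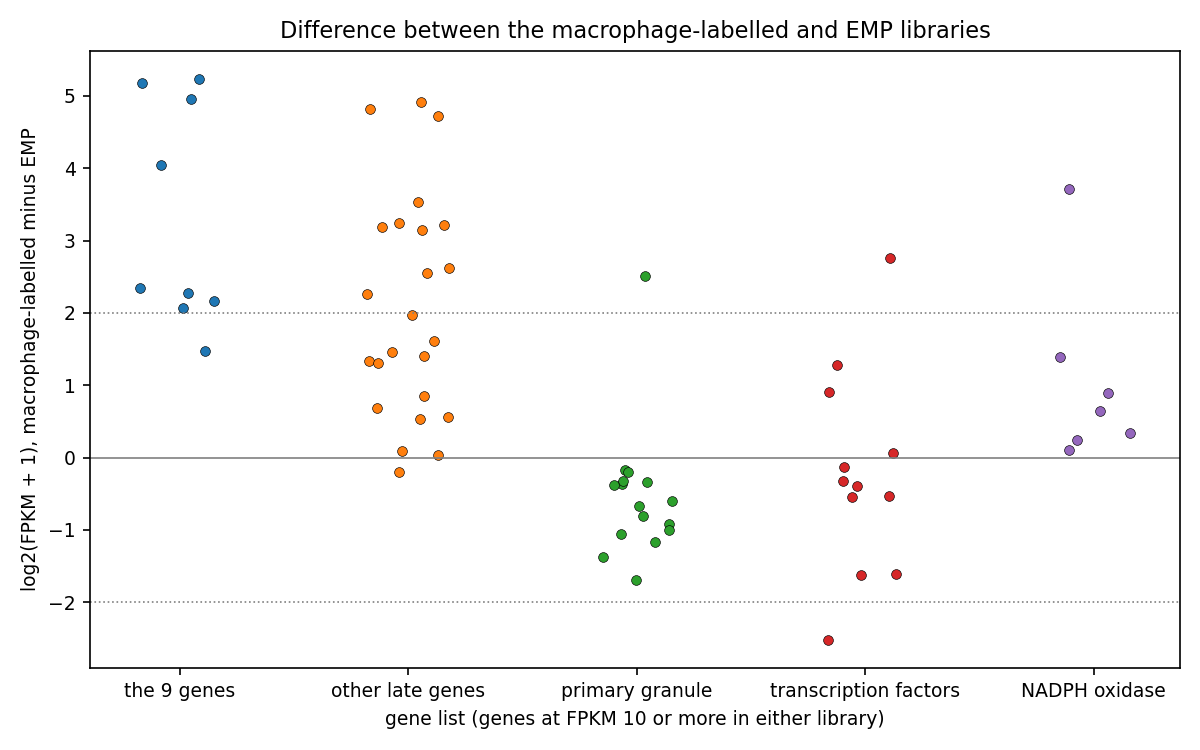
Difference in log2(FPKM + 1), macrophage-labelled library minus EMPs (vertical), for genes of 5 lists with an FPKM of 10 or more in 1 of the pair (1 point per gene, sideways spread for legibility, dotted lines at the 4-fold rule). The 9 genes lie between 1.48 and 5.24, and the primary granule genes other than Ctsc lie below 0 as deposited, with a median over the 16 plotted, Ctsc included, that moves from −0.64 to −0.34 under median-of-ratios scaling.

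Transcription factors of granulocyte development numbered 23 in the table. Of these, 12 passed the filter, with 1 higher and 1 lower, where 2.39% of all genes past the filter were higher and 0.661% lower. Cebpe, which encodes C/EBP epsilon, read 47.0 with the macrophage-labelled cells, 45.1 with EMPs, 2.83 with liver MCPs and 1.32 with early limb MCPs. Spi1, which encodes PU.1, read 99.1, 108, 15.4 and 15.9 in the same order. Gfi1, a repressor needed for neutrophil formation, read 2.61 against 10.01 in EMPs, and Myc, a driver of growth, 33.1 against 104. Id2, an inhibitor of helix-loop-helix factors, was the gene called higher (10.1 against 0.64) and Gata2, a progenitor and mast cell factor, the gene called lower (1.09 against 10.98). Both lie close to the minimum of 10: under median-of-ratios scaling neither reached it (9.63 and 8.42), while their differences stayed at 2.83 and −2.21, and as TPM both were called.

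Receptors of maturing granulocytes numbered 37 in the table, of which 17 passed, 4 were higher and none lower. For this list and the next, 2.39% of all genes past the filter were higher and 0.661% lower. Equal sums and median-of-ratios scaling also gave 4, where 69 of 2808 and 84 of 2749 of all genes were higher. TPM, with 29 past the filter, gave 12, where 286 of 8120 were. The 4 called as deposited were Cd24a (115.3 against 14.9), C5ar1, the C5a receptor (20.8 against 1.69), Ly6c2 (65.0 against 9.59) and Itgam, the CD11b chain (125 against 29.2). Csf3r, the G-CSF receptor, read 12.9 against 21.1, and the formyl peptide receptor genes Fpr1 and Fpr2 6.32 against 0.06 and 7.41 against 0.13, below the filter. Of 7 NADPH oxidase genes all passed and 1 was higher, Cybb, the catalytic chain (159 against 11.1). Its partner chain gene Cyba read 50.2 against 18.5, and the cytosolic subunit genes Ncf4 and Ncf1 27.4 against 14.3 and 66.3 against 41.9. Of 14 genes for binding partners of the 9 proteins, 3 passed and none was called, with a median of 0.09 over the 14. Of the 3, Cd33 read 32.1 against 10.9, Ms4a3 25.2 against 48.6 and Bsg 112 against 143. Below the filter, the calprotectin receptor gene Tlr4 read 5.46 against 3.13 and Lrp1, an endocytic receptor that takes up lactoferrin, 8.27 against 2.27. Of 23 other genes of the same protein families, 10 passed, 5 were higher and none was lower. Those 5 are the stefins already counted among the late genes.

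Marker lists of other cell types differed in both directions between the same libraries. Eosinophil markers reached an FPKM of 1 for 10 of 11, against 8 of 11 in EMPs, and monocyte markers for 13 of 13, against 10 of 13. Summed FPKM went from 270 in EMPs to 10060 for 11 eosinophil markers, from 94.3 to 323 for 13 monocyte markers and from 27.7 to 134 for 21 macrophage markers. Sums were lower for 11 progenitor markers (123 against 374, with 3 called lower and none higher). They were also lower for 14 mast cell markers (67.2 against 130) and 14 erythroid markers (46.0 against 88.3). Of the mast cell markers 4 passed the filter and 1 was called lower, with a median difference of 0.0 over the 14. Of the erythroid markers 3 passed and none was called. Kit (9.96 against 41.7) and Gata2 (1.09 against 10.98) are on both the progenitor and the mast cell list. The 18 markers of neutrophil precursors and maturing neutrophils, which overlap the lists above, all reached an FPKM of 1 in the macrophage-labelled library. They summed to 8406, against 10520 in EMPs, and Mpo alone held 3621 and 8174 of these sums. Of the 18, 15 passed the filter, 7 were called higher and none lower, with a median difference of 1.67 over the 18. Over all genes past the filter 2.39% were called higher and 0.661% lower. All of the 7 but Mmp8 are genes described here. Without the genes described here 11 markers were left. Of those, 8 passed, 1 was called higher and none lower, with a median of 0.06 over the 11. The part of other cell types in the result was not tested.

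Liver MCPs were set against EMPs of the same organ and day to see how the levels of the 9 genes differed. Of the 9 genes, 7 passed the filter, 3 were called lower (Fcnb, Mcemp1 and S100a8) and none higher, where 3.09% of 3369 genes were called lower and 1.78% higher. The median difference of the 9 was −1.97, against −0.18 over those 3369 genes. S100a9 and Camp lay just short of the limit at −1.99 and −1.97 and were called with a pseudocount of 0.1, while the Mcemp1 call (20.3 in EMPs) was lost at a minimum FPKM of 30. At 2-fold 5 of the 9 were lower, as were 15.9% of genes. The 9 genes were unequal. Liver MCPs held 1.48% of the EMP level of Mcemp1, 3.83% of Fcnb and 16.4% to 24.95% of S100a8, Camp and S100a9, but 58.7% of Ltf, 65.6% of Lcn2, 97.5% of Ngp and 328% of Stfa2. The stefin relatives were unequal as well. Stfa2l1 (26.8 against 20.1) and Stfa3 (6.62 against 6.53) were near the EMP level, while Stfa1 (28.9 against 155) and Gm5483 (26.4 against 94.2) were lower.

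The listed primary granule genes had 9 of 16 called lower in the same comparison, where 3.09% of all genes past the filter were. Mpo read 878 against 8174. Both comparisons share the EMP library. Erythroid markers in liver MCPs summed to 376 against 88.3 in EMPs, with 12 of 14 at an FPKM of 1 or more against 10, and mast cell markers to 383 against 130, with 8 of 14 against 5. Their part in the lower values was not tested.

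Against the macrophage-labelled library, liver MCPs were lower in 9 of 9 genes, all of which passed the filter, where 5.99% of 3254 genes were called lower and 3.72% higher. The median difference was −4.73, against 0.16 over those genes. Levels in liver MCPs were 0.340% (Mcemp1) to 6.37% (Stfa2) of the macrophage-labelled level, with a median of 3.67%. In early limb MCPs they were 0.465% to 1.54%, with a median of 1.06%. The 9 genes were thus nearer to a common proportion there than in liver EMPs, where the range was 1.89% to 35.5%. Several limb values rest on few fragments, about 5 for Mcemp1, 6 for Stfa2 and 10 for Camp. The counting interval of Camp there was an FPKM of 0.740 to 2.84, so single limb percentages are rough.

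**Figure D4:**
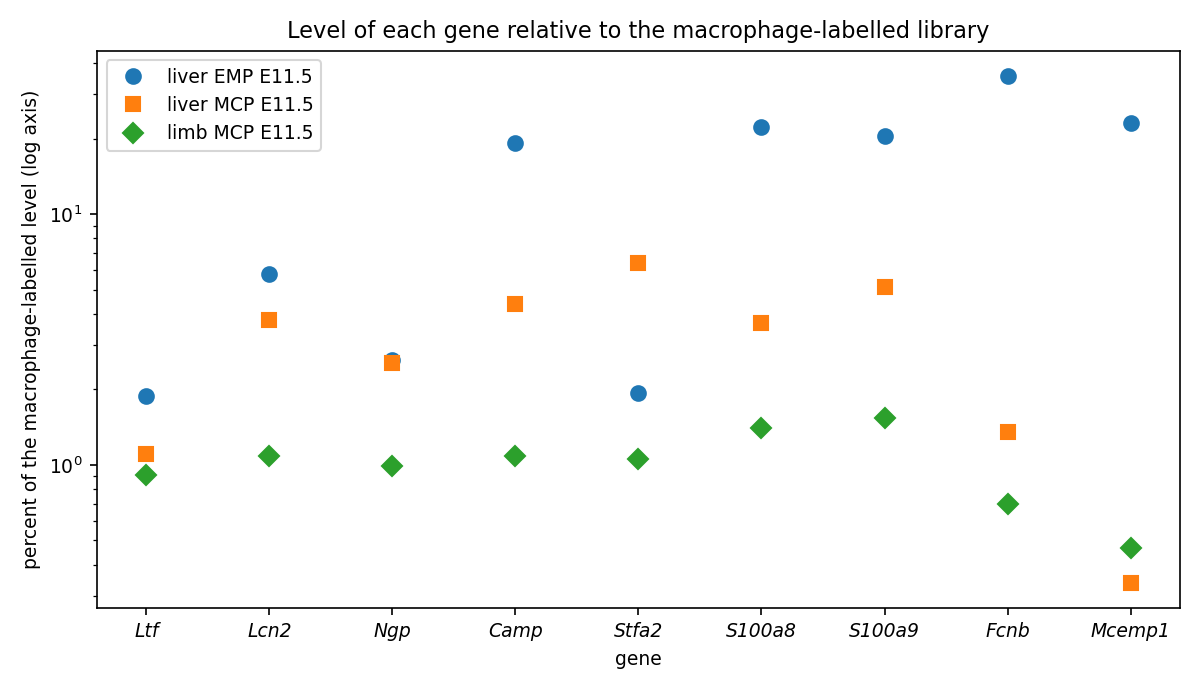
Level of each gene (horizontal) as a percent of its macrophage-labelled level (vertical, log axis) in the other 3 libraries taken at E11.5. Early limb MCPs lie between 0.465% and 1.54%, whereas EMPs reach 35.5% for Fcnb and 1.89% for Ltf.

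Limb MCPs at E11.5 were compared with liver MCPs of the same day. No gene of the 9 was called in either direction, with 4 past the filter, where 2.04% of 3136 genes were called lower and 1.18% higher. The median difference was −1.32. At 2-fold the 4 genes past the filter were lower, as were 14.1% of genes. Of the 4 genes past the filter S100a9 had the largest difference, −1.69 (21.3 against 70.8), followed by Lcn2, S100a8 and Ngp. Levels in the limb were 16.6% (Stfa2) to 82.7% (Ltf) of those in liver MCPs for 8 genes, and 137% for Mcemp1, where both values rest on about 5 fragments.

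By E14.5 the limb library held almost none of this RNA. S100a8 and S100a9, at 13.5 and 21.3 at E11.5, were listed at 0 and were both called lower, the only 2 of the 9 that passed the filter, where 1.75% of 2970 genes were called lower and 2.39% higher. Ltf, Lcn2, Camp and Stfa2 were listed at 0 as well, and Ngp remained at 0.39, about 5 fragments. At this depth 3 fragments would give an FPKM of 0.551 for S100a8 and 0.293 for Lcn2. Mpo went from 417 to 1.25, and mast cell markers summed to 3885 against 814. In skin at E16.5 none of the 9 genes passed the filter against limb MCPs at E14.5, where 33.4% of 2759 genes were called lower and 1.78% higher, and Ngp and Stfa2 were the genes above 0, each on 1 or 2 fragments.

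Across the 6 libraries the 9 genes followed one another in log2(FPKM + 1) with a Pearson r of 0.785 to 0.997 over their 36 pairs (median 0.931), a description over libraries of which 3 come from fetal liver. Lcn2 and Camp were closest to the mean of the other 8, both at 0.992, and Ltf farthest at 0.895. Genes outside the 9 with a higher r to that mean numbered 6 for Lcn2, 5 for Camp and 183 for Ltf. Outside the 9, the 8 genes most like their mean profile among 4007 compared, each reaching an FPKM of 10 somewhere, were Klf5, Ifi202b, Gapt, Lyz2, Gm5483, Tagap, Olfm4 and Fam101b, with r from 0.994 to 0.991. Klf5, a Krüppel-like factor, read 10.6 with the macrophage-labelled cells, 3.78 with EMPs and 2.03 with liver MCPs. Of the 4007 genes, 72 had an r of at least 0.95, and the eosinophil marker Epx ranked 9 at 0.991. The profile was thus not particular to the 9 genes.

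Neighbours on the chromosome were looked at next. Of 43 other genes of the table within 100 kb of any of them, 8 passed the filter in the macrophage-labelled against EMP comparison. Called higher were 2 of the 8, where 2.39% of all genes past the filter were, and none was lower. Both are stefins near Stfa2 (BC100530, 633 against 107.5, and Stfa3) that were also counted among the late genes. Cdc25a, a cell cycle phosphatase gene near Camp, read 10.2 against 11.97, Scap near Ngp 16.53 against 22.3, and Ciz1 near Lcn2 11.6 against 21.5. Beside S100a8, which lies on chromosome 3 at 90668978 to 90670035 and 22.6 kb from S100a9, S100a7a was at 0.49 and S100a6 at 4.92 while EMPs had 0 and 0.23.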

How the data were processed

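The values analysed are FPKM, to 2 decimals, from 1 table deposited by the authors. The submitters' processing notes name Bowtie2, RSEM, mm10 and GRCm38, and no version or annotation is given in the sources used here. RNA was isolated with TRIzol and sequenced on Illumina HiSeq per the labels' protocols. Of 17913 rows, 4 with repeated names were dropped. Groups came from the labels, with 1 library each, so no test, p-value or replicate error exists, and calls describe these libraries only. Differences are those of log2(FPKM + 1), which understates the change of low genes. Folds are FPKM ratios and are not given against a library listed at 0. Depth was sought as the total that brings 1409 single-transcript genes of GENCODE M21 closest to whole fragments (74.8% to 80.4% of usable values within 0.2), with GENCODE lengths, so fragments per gene are approximate. The calling and depth steps were checked on simulated data, where 17 of 18 libraries were returned within 2% of their depth. The simulation used the same GENCODE lengths as the estimate, so it could not test whether those lengths are right. Promoters are RefSeq's, and all 9 genes matched by symbol. The 9 genes, the lists and the rules were chosen with earlier results of these data known. Genes named are the 9, the 4 most different of each list between the macrophage-labelled and EMP libraries or those described by role, the 8 most alike, and neighbours within 100 kb. Work was done in Python 3.11.15 with pandas 2.3.3.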

Additional observations from a re-analysis of the deposited data

How the results depend on the processing

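No paired analysis was possible because each group holds 1 library. Of 388 recomputed values, 349 stayed within 1.5 times (0.58 on the log2 scale) of the reported one, and none that was called changed sign. The 8 genes called higher in the macrophage-labelled library than in EMPs were 7 to 9 under the alternatives run, with 7 under a pseudocount of 5, where Mcemp1 was not called. The 9 genes lower in liver MCPs than in the macrophage-labelled library stayed 9 under each. The 3 called lower in liver MCPs than in EMPs became 5 with a pseudocount of 0.1, 5 at 2-fold and 2 at a minimum of 30. For limb against liver MCPs at E11.5, 0 became 4 at 2-fold. For the limb at E14.5 against E11.5, the 2 called lower became 1 with a pseudocount of 5, 4 with no filter and 0 at a minimum of 30, and the median of −1.38 became −3.95 with a pseudocount of 0.1 and −0.40 with 5. The primary granule median in liver MCPs against the macrophage-labelled library, −1.62, became −0.92 with a pseudocount of 5.

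TPM makes values larger, so the same minimum of 10 let 8120 rather than 3179 genes pass in the macrophage-labelled against EMP comparison and the pseudocount weighed less. As TPM, and as TPM after removing erythroid genes, the limb against liver MCP count was 1 and 1, the later limb count 6 and 6, and its median −3.64 and −3.64. Over all genes as TPM, 424 of 8700 were lower in limb than liver MCPs and 388 of 8655 in the later limb. An alternative chosen after seeing the data rescaled each library to the mean deposited sum, which keeps the scale. With it the 3 values were 0, 2 and −1.40, and 0, 2 and −1.40 without erythroid genes. Over all genes passing the filter, median-of-ratios scaling moved the macrophage-labelled against EMP median from −0.29 to 0.07. The lower share of calls in that comparison was 21.6% as deposited, 16.9% at equal sums, 9.68% under median-of-ratios scaling and 41.9% as TPM. For liver MCPs against EMPs it was 63.4% as deposited, 51.1% at equal sums and 43.5% as TPM, and against the macrophage-labelled library 61.7%, 58.9% and 43.4%, with 76.6% under median-of-ratios scaling. For limb against liver MCPs at E11.5 it was 63.4% as deposited and 48.0% under median-of-ratios scaling, with 47 lower and 47 higher at equal sums. For skin it was 94.95% as deposited, 75.7% at equal sums and 42.1% under median-of-ratios scaling.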
